A study of Danio rerio with 4 samples.

Results

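The neutrophil granule protein genes are a set of 7 zebrafish (Danio rerio) genes, mpx, lyz, npsn, cpa5, lect2l, nccrp1 and srgn, taken by symbol from the 31947 genes of the deposited count table. Each symbol belonged to 1 row of that table, and all 7 genes passed the filter on low counts that left 19016 genes for testing. The RNA came from cells that FACS separated out of embryonic tails, 52 hours after fertilisation. The embryonic tail contains the caudal hematopoietic tissue (CHT), a vascular bed in which embryonic blood stem and progenitor cells lodge and multiply. The first group, CHT-EC, was labelled endothelial and held cells positive for mCherry driven by the kdrl promoter, which is active in endothelium. The second group, CHT-HSPC, was labelled as stem and progenitor cells and held cells positive for GFP driven by the CD41 (itga2b) promoter, which is active in those cells and in thrombocytes. There were 2 libraries in each group, of the same age and tail region, and no other genotype or treatment was named. Whether either gate left out cells with both colours is not given in the sources used here. Whether libraries of the same group were sorted independently is not in the labels. The p-values therefore measure only the spread between these libraries, which may be technical.

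Neutrophils are white cells that arrive early at wounds and infections and carry ready-made antimicrobial proteins in cytoplasmic granules. The granules are filled in stages while the cell matures in blood-forming tissue. Transcripts of granule proteins can therefore be found in the neutrophil line from its precursors on. Not all genes of the set are confined to that line, as described below for cpa5 and srgn. In the zebrafish embryo, the CHT and the tail blood vessels are places where neutrophils gather, and mpx and lyz are the genes most often used to mark them. The set joins enzymes that act on microbes or proteins (mpx, lyz, npsn and cpa5), a proteoglycan that packs granule contents (srgn), and 2 leukocyte proteins that are not classical granule enzymes (lect2l and nccrp1). The name of the set therefore describes some of its members better than others.

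All 7 genes were higher in CHT-EC than in CHT-HSPC, by 6.02-fold for srgn to 45.4-fold for npsn. Of the 19016 genes tested, 3.78% were higher in CHT-EC by the same rule, an adjusted p under 0.05 in the quasi-likelihood F-test of edgeR with Benjamini-Hochberg adjustment. In every member both CHT-EC libraries lay above both CHT-HSPC libraries, which was so for 30.6% of tested genes, while 27.9% had both CHT-EC libraries below. The median log2 fold change, given throughout as CHT-EC minus CHT-HSPC, was 5.01 over the 7 members and 0.02 over all tested genes. Together the members took 1.68% of all counts in CHT-EC replicate 1 and 1.39% in CHT-EC replicate 2, against 0.0512% in CHT-HSPC replicate 1 and 0.0925% in CHT-HSPC replicate 2. The exact 95% binomial intervals were 1.678% to 1.688% and 1.388% to 1.396% for CHT-EC, and 0.05043% to 0.05203% and 0.09144% to 0.09354% for CHT-HSPC. These intervals cover counting error only, and the replicates of each group differed by more than that. The mean level summed over the members was 22.6-fold higher in CHT-EC. In sorted bulk samples such as these, the number of cells that express the genes, their RNA per cell and their cell type cannot be told apart.

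**Figure D1:**
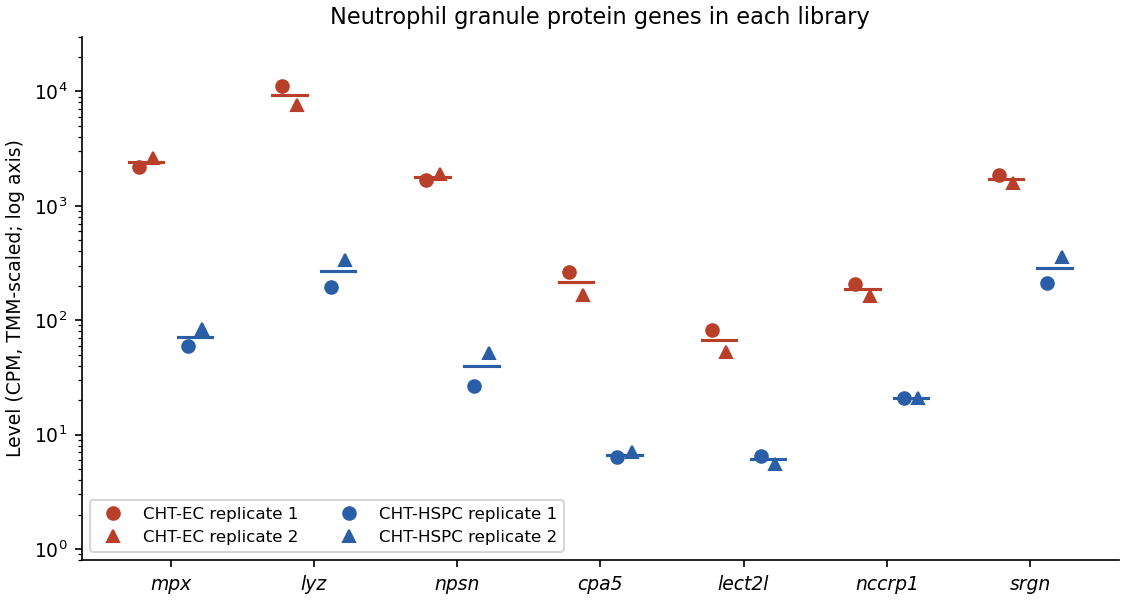
Level of each of the 7 genes in CPM (counts relative to library size, with sizes scaled by TMM; logarithmic axis) in the single libraries, with circles for replicate 1, triangles for replicate 2 and bars for the group mean (n = 2). For all 7 genes the CHT-EC points (red) lie above the CHT-HSPC points (blue), with the narrowest gap for srgn, at 1849 and 1572 CPM for CHT-EC against 213 and 355 CPM for CHT-HSPC.

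The enzyme genes showed the widest differences. The gene mpx (ENSDARG00000019521) encodes myeloperoxidase, which makes hypochlorous acid from hydrogen peroxide. It had 58766 and 76850 counts in CHT-EC replicates 1 and 2, against 1773 and 2881 counts in CHT-HSPC replicates 1 and 2. Both CHT-EC libraries were far above both CHT-HSPC libraries, and replicate 2 was the higher one in each group. Its CPM, the count relative to a TMM-scaled library size, was 2407 ± 289 in CHT-EC against 71.5 ± 16.6 in CHT-HSPC (here and below, mean ± SD over n = 2 libraries a group). The log2 fold change was 5.07 with an SE of 0.31 (edgeR adjusted p = 0.00357).

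Lysozyme, encoded by lyz (ENSDARG00000057789), cuts the cell wall of bacteria and supplied more counts in CHT-EC than the other 6 members together. Its counts were 295634 and 222493 in the CHT-EC libraries, against 5819 and 11706 in CHT-HSPC. In CHT-EC replicate 1 was the higher library, and in CHT-HSPC it was replicate 2. The level averaged 9320 ± 2489 CPM in the CHT-EC libraries, against 267 ± 101 CPM in CHT-HSPC, with a log2 fold change of 5.12 (SE 0.39, edgeR adjusted p = 0.00484). Leaving lyz out, the other 6 members took 0.608% and 0.643% of counts in the CHT-EC libraries, against 0.0322% and 0.0562% in the CHT-HSPC libraries.

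The gene npsn (ENSDARG00000010423) encodes nephrosin, a secreted zinc protease of the astacin family that was first described in the blood-forming tissue of carp. It had 44541 and 56324 counts in the CHT-EC libraries, against 792 and 1806 counts in CHT-HSPC. This was the widest difference of the 7 genes, and also the widest gap between the CHT-HSPC libraries, where replicate 2 was 1.96 times replicate 1 in CPM. The level averaged 1792 ± 173 CPM in the CHT-EC libraries, against 39.5 ± 18 CPM in CHT-HSPC, with a log2 fold change of 5.50 (SE 0.41, edgeR adjusted p = 0.00484).

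The gene cpa5 (ENSDARG00000021339) encodes a carboxypeptidase A, which trims amino acids from the ends of proteins, and in zebrafish it has also been used as a marker of mast cells. It had 7015 and 4927 counts in the CHT-EC libraries, against 188 and 244 counts in CHT-HSPC. The CHT-HSPC libraries lay close together and far below both CHT-EC libraries, of which replicate 2 was 0.637 times replicate 1 in CPM. The level averaged 215 ± 67.5 CPM in the CHT-EC libraries, against 6.69 ± 0.508 CPM in CHT-HSPC, with a log2 fold change of 5.01 (SE 0.36, edgeR adjusted p = 0.00455).

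The remaining 3 genes differed less. The gene lect2l (ENSDARG00000033227) is a relative of the mammalian LECT2 gene, whose product is secreted and attracts neutrophils. It had 2189 and 1550 counts in the CHT-EC libraries, against 195 and 193 counts in CHT-HSPC. The groups did not overlap, and the gap between the CHT-EC libraries was of the same kind as for lyz and cpa5, with replicate 1 the higher. The level averaged 67.4 ± 20.8 CPM in the CHT-EC libraries, against 6.08 ± 0.702 CPM in CHT-HSPC, with a log2 fold change of 3.47 (SE 0.37, edgeR adjusted p = 0.0101).

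The gene nccrp1 (ENSDARG00000035326) was named for a receptor protein of the nonspecific cytotoxic cells of fish, which kill target cells without prior exposure. It had 5578 and 4829 counts in the CHT-EC libraries, against 624 and 720 counts in CHT-HSPC. The level was 209 and 164 CPM in the CHT-EC libraries, against nearly equal values of 21.0 and 20.8 CPM in CHT-HSPC. The log2 fold change was 3.16 (SE 0.28, edgeR adjusted p = 0.00763).

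The gene srgn (ENSDARG00000077069) encodes serglycin, the proteoglycan core that in mammals holds charged proteases and other cargo in the granules of neutrophils, mast cells and platelets. It had 49327 and 46277 counts in the CHT-EC libraries, against 6318 and 12293 counts in CHT-HSPC. The CHT-EC libraries lay close together, and CHT-HSPC replicate 2 was 1.67 times replicate 1 in CPM. The level averaged 1711 ± 195 CPM in the CHT-EC libraries, against 284 ± 101 CPM in CHT-HSPC, with a log2 fold change of 2.59 (SE 0.32, edgeR adjusted p = 0.0126). This was the narrowest difference of the 7 genes. It was also the one call that depended on a single library, since the adjusted p was 0.0608 without CHT-EC replicate 1. The other 6 members passed without that library, where 0.546% of all tested genes did so in that direction, and lect2l did so narrowly (edgeR adjusted p = 0.0491).

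Because the genes differed to unequal extents, the make-up of the set was not the same in the 2 groups. Of the counts on the 7 genes, srgn held 10.7% and 11.2% in the CHT-EC libraries, against 40.2% and 41.2% in CHT-HSPC. The share of lyz was 63.8% and 53.8% in the CHT-EC libraries, against 37.0% and 39.2% in CHT-HSPC. For both genes the groups were apart, and the CHT-HSPC libraries lay within 3 percentage points of each other. Per 100 counts of lyz there were 16.7 and 20.8 counts of srgn in the CHT-EC libraries, against 109 and 105 in CHT-HSPC. In the same ratio nccrp1 stood at 1.89 and 2.17 in the CHT-EC libraries, against 10.7 and 6.15 in CHT-HSPC. That of lect2l was 0.740 and 0.697 in the CHT-EC libraries, against 3.35 and 1.65 in CHT-HSPC. The enzyme genes kept closer to lyz. Per 100 counts of lyz there were 19.9 and 34.5 counts of mpx in the CHT-EC libraries, against 30.5 and 24.6 in CHT-HSPC, so that the groups overlapped. For cpa5 the ratio was 2.37 and 2.21 in the CHT-EC libraries, against 3.23 and 2.08 in CHT-HSPC, again with overlap. For npsn it was 15.1 and 25.3 in the CHT-EC libraries, against 13.6 and 15.4 in CHT-HSPC, where CHT-HSPC replicate 2 lay above CHT-EC replicate 1. Gene length is the same in every library, so it does not enter a comparison of such a ratio between libraries, although the share of a gene within a library does depend on it. No test was run on these ratios, which were set up after the values had been seen, and with 2 libraries against 2 the smallest two-sided p of an exact permutation test is 0.333.

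**Figure D2:**
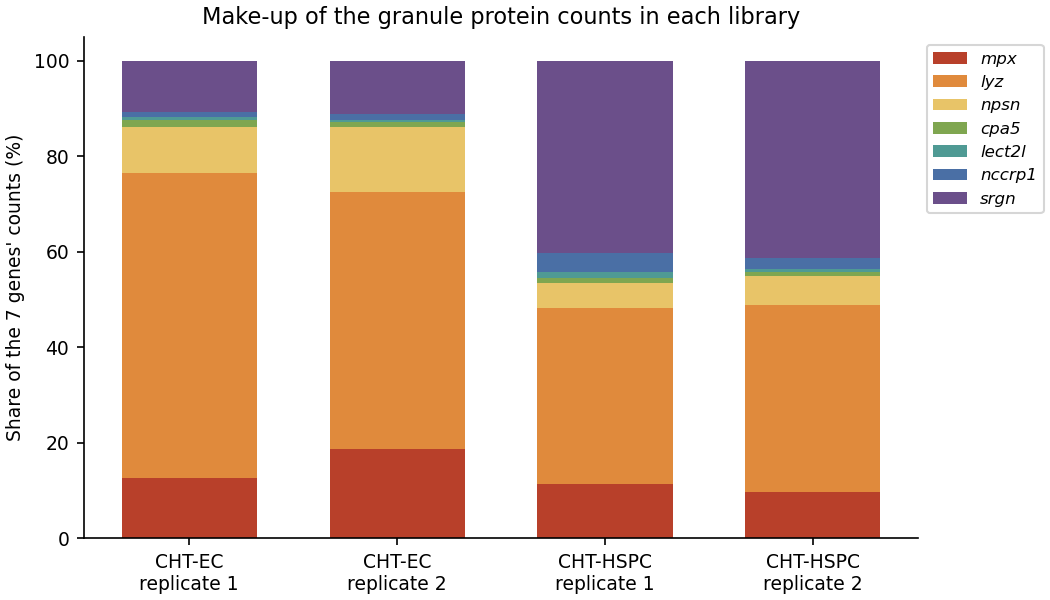
Share of the counts on the 7 genes held by each gene, in percent, with 1 stacked bar per library. In the CHT-EC bars srgn takes 10.7% and 11.2%, against 40.2% and 41.2% in the CHT-HSPC bars. Shares are of counts and are not corrected for gene length.

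The members also differed in how they varied between replicates. In CHT-EC, replicate 2 was above replicate 1 for mpx (1.19 times, in CPM) and npsn (1.15 times), and below it for the other 5, down to 0.637 times for cpa5. In CHT-HSPC, npsn, lyz, srgn and mpx were 1.39 to 1.96 times as high in replicate 2 as in replicate 1, while cpa5, lect2l and nccrp1 lay between 0.849 and 1.11 times. No member differed between replicates of a group by more than 0.97 on the log2 scale, and its difference between the groups was 2.59 or more.

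The level of a granule gene can also be set against a gene that all white cells use. For this, lcp1 was taken, an actin-bundling protein of leukocytes and the member with the highest mean CPM in a list of pan-leukocyte genes. There were 158 and 243 counts of mpx per 100 counts of lcp1 in the CHT-EC libraries, against 19.1 and 26.4 in CHT-HSPC. For npsn the numbers were 120 and 178 in the CHT-EC libraries, against 8.53 and 16.6 in CHT-HSPC. For srgn they were 132 and 146 in the CHT-EC libraries, against 68.1 and 113 in CHT-HSPC. All 7 genes were higher in CHT-EC by this measure, and srgn came nearest to an overlap. The gene lcp1 itself was at 1397 and 1074 CPM in the CHT-EC libraries, against 313 and 315 CPM in the CHT-HSPC libraries (log2 fold change 1.98, SE 0.25, edgeR adjusted p = 0.0133). Over all tested genes, 3.78% were higher in CHT-EC. Of the 9 tested genes of the pan-leukocyte list, 5 were higher in CHT-EC and the median log2 fold change was 1.63. Besides lcp1 these were coro1a (log2 fold change 2.51), an actin regulator, rac2 (2.23), a small GTPase of leukocyte movement, hcls1 (2.86), a cortactin relative of blood cells, and ptprc (1.63), the CD45 phosphatase. The abundant gene arhgdig (0.91) did not pass. Without CHT-EC replicate 1 none of the 5 passed in edgeR, with adjusted p from 0.05 for coro1a to 0.0986 for ptprc.

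Further genes known from neutrophils were set beside the granule protein genes. Of a list of 26 such genes, 22 were in the table and tested, and 11 of them were higher in CHT-EC. Over all tested genes that share was 3.78%. The median log2 fold change of the list was 2.78. In all 22 both CHT-EC libraries lay above both CHT-HSPC libraries, which was so for 30.6% of all tested genes. The gene mmp9, a gelatinase stored in neutrophil granules of mammals, had 3251 and 2652 CPM in the CHT-EC libraries, against 457 and 382 CPM in the CHT-HSPC libraries (log2 fold change 2.82, SE 0.26, edgeR adjusted p = 0.00763). The collagenase gene mmp13a had 2686 and 1892 CPM in the CHT-EC libraries, against 245 and 162 CPM in the CHT-HSPC libraries (log2 fold change 3.49, SE 0.33, edgeR adjusted p = 0.00810). The gene ncf1, a subunit of the oxidase that supplies peroxide, had 664 and 181 CPM in the CHT-EC libraries, against 18.6 and 60.8 CPM in CHT-HSPC, and did not pass (edgeR adjusted p = 0.0573). Its CHT-EC libraries differed more than those of any of the 7 granule genes. Without CHT-EC replicate 1, 4 genes of this list were higher in CHT-EC, which were mmp9, mmp13a, adam8a, a membrane protease of leukocytes, and fcer1gl, an Fc receptor gamma chain. The count also depended on the tool, at 19 with DESeq2.

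Beside the granule enzymes, the list held the phagocyte oxidase, which makes superoxide from oxygen and so feeds myeloperoxidase. Its membrane subunit genes cybb (log2 fold change 3.90) and cyba (2.75) were higher in CHT-EC. So were ltb4r (3.43), a receptor for the attractant leukotriene B4, alox5ap (3.10), needed to make leukotrienes, and hck (2.1), a kinase of myeloid cells. These 5 passed with edgeR adjusted p between 0.0154 (cybb) and 0.0488 (alox5ap), and none passed without CHT-EC replicate 1. They were named after their values were seen, among genes that passed. The list also held 11 tested genes that did not pass in edgeR. Among those were the oxidase subunit gene ncf4 (2.45, edgeR adjusted p = 0.0562), csf3r (1.84, edgeR adjusted p = 0.146) and cxcr4b (0.43, edgeR adjusted p = 0.423).

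Genes that build and release granules were set beside the granule proteins. Of 18 tested genes for the traffic and fusion of granules and related organelles, 1 was higher in CHT-EC, where 3.78% of all tested genes were, so the count is near that background. The median log2 fold change was 0.16. That gene was stx11a, a fusion protein of secretory granules, with 6328 and 2947 counts in the CHT-EC libraries, against 593 and 818 counts in the CHT-HSPC libraries (log2 fold change 2.95, SE 0.45, edgeR adjusted p = 0.0201, and 0.0693 without CHT-EC replicate 1). The priming factor unc13d had 168 and 143 CPM in the CHT-EC libraries, against 89.1 and 183 CPM in CHT-HSPC, so that the groups overlapped (log2 fold change 0.19, SE 0.37). Its partner stxbp2 (0.26, SE 0.29) and the membrane fusion gene snap23.1 (0.51, SE 0.27) did not pass either. Of the 18 genes, 13 had a positive log2 fold change. Not past the threshold in edgeR, but past it in both DESeq2 and limma-voom, were rab44 (3.73, SE 0.89) and vamp8 (1.82, SE 0.42). DESeq2 also called stx11b.1 (2.39, SE 0.83). The count of this list rested on the test, at 4 with DESeq2, 3 with limma-voom and 0 without CHT-EC replicate 1.

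**Figure D3:**
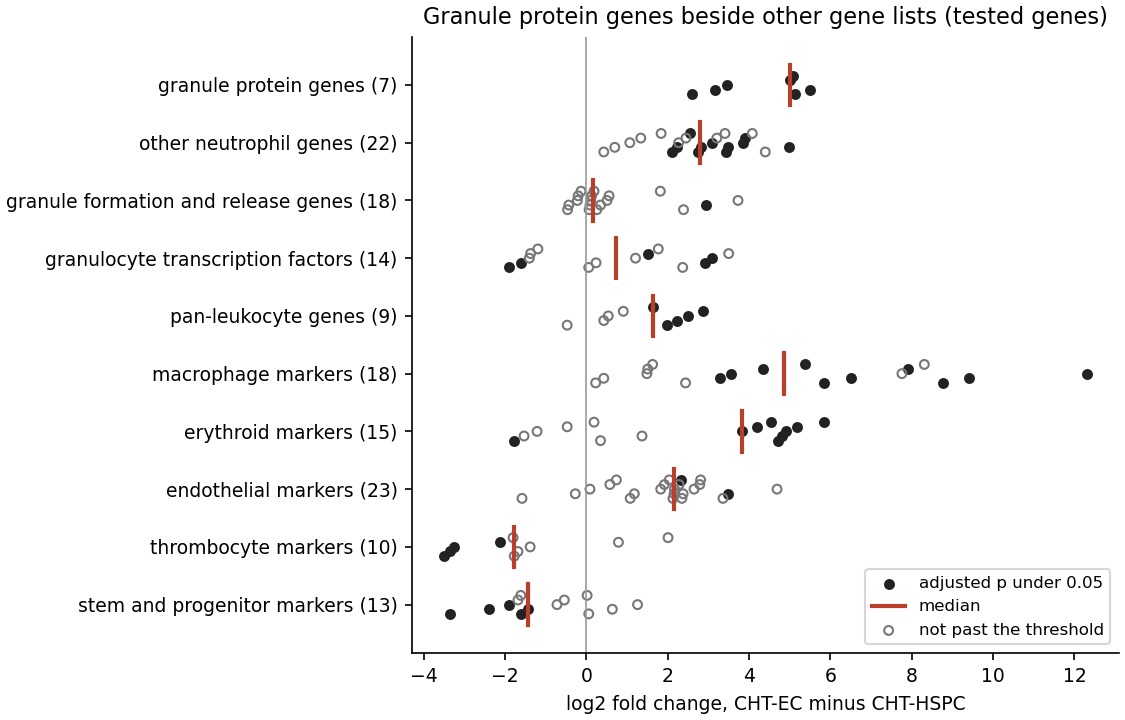
Log2 fold change (CHT-EC minus CHT-HSPC) of each tested gene of the granule protein set and of 9 other lists, with filled points past an adjusted p of 0.05 in edgeR, open points not past it, and a red bar for the median. The granule protein genes lie between 2.59 and 5.50, while the median of the granule formation and release genes is 0.16. The values farthest right among the macrophage markers are fitted values of genes with few or no counts in CHT-HSPC and are no bounds.

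A list of granulocyte transcription factors gave calls in both directions. Of 14 tested genes, 3 had higher levels in CHT-EC, where 3.78% of all tested genes did. Another 2 had higher levels in CHT-HSPC, where 0.752% of all tested genes did. The median log2 fold change of the list was 0.72. Those higher in CHT-EC were spi1b (log2 fold change 3.08), the Pu.1 factor of myeloid fate, cebpa (2.92), a factor that starts granulocyte development, and cebpb (1.52), a factor of mature and stimulated myeloid cells. Those higher in CHT-HSPC were myb (-1.60), which in zebrafish is needed for definitive blood cells, and runx1 (-1.89), needed to form blood stem cells. Both also stood on the list of stem and progenitor markers described below. The gene cebpa had 365 and 434 CPM in the CHT-EC libraries, against 35.8 and 69.7 CPM in CHT-HSPC. The gene myb had 344 and 479 CPM in the CHT-EC libraries, against 1098 and 1393 CPM in CHT-HSPC. The fourth abundant gene of the list, klf6a (1.21), did not pass (edgeR adjusted p = 0.122). Without CHT-EC replicate 1 none of these 5 genes passed in edgeR, with adjusted p from 0.0558 for cebpa to 0.179 for runx1. The count higher in CHT-EC was 7 with DESeq2, 7 with no filter on low counts and 5 with limma-voom. The count higher in CHT-HSPC was 4 with no filter and 1 with library totals only. Leaving out CHT-EC replicate 2 ended the calls of myb, cebpb and runx1, and leaving out CHT-HSPC replicate 2 that of runx1.

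By pattern over the 4 libraries, the genes nearest to the set were kctd12.2, lgals9l1, fgd6, ctssb.2, adam19b, vwa11, dhrs9 and adam8a. Likeness was the root mean square difference between a gene's log2(CPM + 1) values, centred on their mean, and the mean centred profile of the 7 members. That profile was 2.25 and 1.97 for the CHT-EC libraries and -2.31 and -1.90 for the CHT-HSPC libraries. The difference was 0.11 for kctd12.2, 0.19 to 0.28 for the other 7, and 0.33 to 0.80 for the members themselves. Near the floor the added 1 CPM narrows a gene's pattern. In the CHT-HSPC libraries lgals9l1 had 1 and 17 counts and ctssb.2 had 0 and 28. Their fitted log2 fold changes were 6.51 (SE 0.98) and 6.09 (SE 1.22). The gene kctd12.2 had 60.5 and 46.0 CPM in the CHT-EC libraries, against 1.42 and 1.79 CPM in the CHT-HSPC libraries (log2 fold change 5.05, SE 0.40, edgeR adjusted p = 0.00574). The protease gene adam19b had 188 and 142 CPM in the CHT-EC libraries, against 5.80 and 12.5 CPM in CHT-HSPC. The gene lgals9l1, a galectin, stood on the macrophage list, and adam8a on the list of other neutrophil genes. Only genes averaging at least 20 CPM in 1 group were considered, and 4 libraries in 2 groups leave many genes with a similar pattern.

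**Figure D4:**
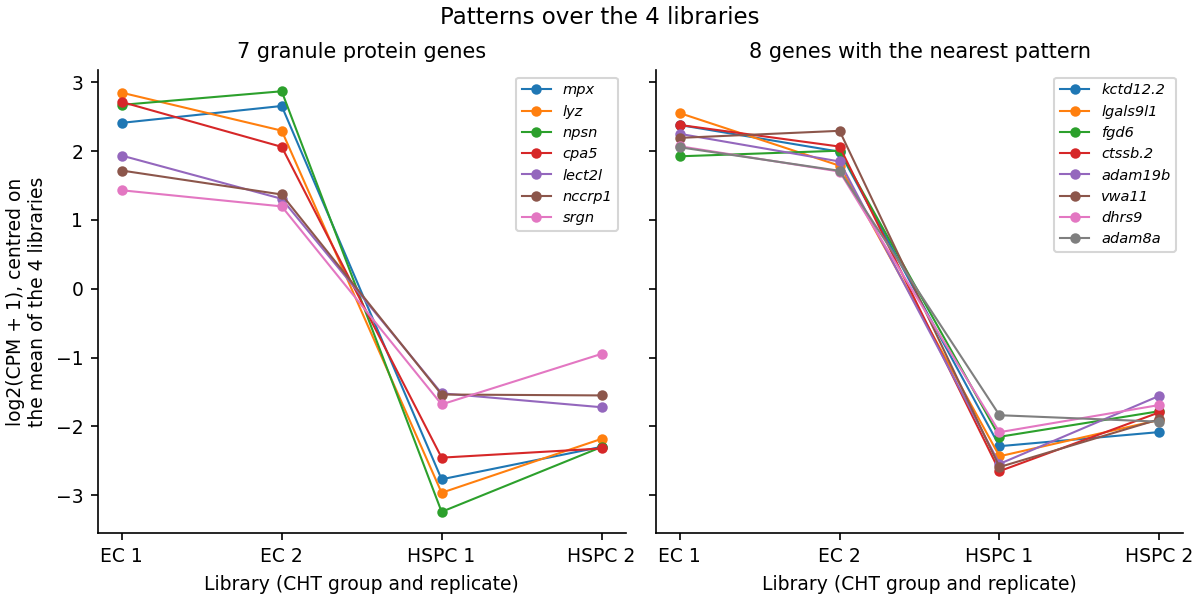
Log2(CPM + 1) centred on each gene's mean over the 4 libraries, for the 7 granule protein genes (left panel) and the 8 genes nearest to their mean profile (right panel), with 1 line per gene. The members spread around a mean of 2.25 and 1.97 for the CHT-EC libraries and -2.31 and -1.90 for the CHT-HSPC libraries, and srgn, nccrp1 and lect2l show the flattest lines.

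Relatives of the members by symbol, with which reads could in principle be shared, had few counts. The peroxidase gene epx had 19 counts over the 4 libraries, where mpx had 140270. The carboxypeptidase A genes cpa1, cpa4 and cpa6 had between 9 and 204 counts, where cpa5 had 12374. The astacin genes c6ast1, c6ast3, c6ast4, he1a and he1b had between 17 and 133 counts, where npsn had 103463. These relatives were picked after the values had been seen.

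In the RefSeq annotation of assembly GRCz12tu, used here for gene order alone, 6 of the 7 members were matched by symbol, on 6 different chromosomes. The gene lect2l was not matched and was not placed. Of the 12 flanking protein-coding genes that were also in the table, 10 were tested, and 0 passed the adjusted threshold in edgeR, with 3 at an unadjusted p under 0.05, 3 called by DESeq2 and 0 by limma-voom. The flanking genes of npsn, c6ast1 and c6ast3, are astacin genes themselves, and c6ast1 had 66 and 54 counts in the CHT-EC libraries, against 4 and 9 counts in CHT-HSPC. Among the tested flanking genes, only ckma and pik3ap1 had a negative log2 fold change. The muscle creatine kinase gene ckma, next to nccrp1, had a value of -0.80 (SE 0.76, edgeR adjusted p = 0.568). For pik3ap1 it was -0.43 (SE 0.41). The largest positive values were 3.41 (SE 1.19) for c6ast1 and 2.84 (SE 0.97) for chodl. Next came abcc13 (2.69, SE 1.47) and slc8a2a (2.55, SE 0.88).

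Markers of other cell types also moved with the groups, and their part in the difference was not tested. As a background for the list counts, edgeR called 3.78% of all tested genes toward CHT-EC and 0.752% toward CHT-HSPC. Library totals ranged from 27514202 to 32268535 counts. Of 23 tested endothelial markers, 2 were higher in CHT-EC, stab2 (3.48) and nr2f2 (2.34), and the summed level of the list was 754 and 543 CPM in the CHT-EC libraries, against 405 and 396 CPM in CHT-HSPC. The count of 2 depended on the fit, at 12 with DESeq2, 14 with no filter on low counts and 0 with library totals only. The other abundant endothelial genes, fli1a (-0.27), fli1b (0.09) and tek (0.58), did not pass. The gene kdrl, behind the mCherry reporter, was at 14.5 and 3.40 CPM in the CHT-EC libraries, against 3.07 and 0.896 CPM in CHT-HSPC, and did not pass (edgeR adjusted p = 0.208). Without CHT-EC replicate 1, 0 of the 23 were called in either direction in edgeR, at adjusted p of 0.157 (nr2f2) and 0.177 (stab2), while without CHT-EC replicate 2 the count higher in CHT-EC was 6. Of 18 tested macrophage markers, 10 were higher in CHT-EC (4 without CHT-EC replicate 1 and 4 with limma-voom), with sums of 1042 and 752 CPM in the CHT-EC libraries, against 122 and 277 CPM in CHT-HSPC. Their median was 4.86, or 4.31 with the 3 genes without a count in CHT-HSPC (c1qa, c1qb and c1qc) given the limit of 3 counts for the whole group, and grn2 had no count in any library. The macrophage gene mpeg1.1 had 53.0 and 60.6 CPM in the CHT-EC libraries, against 0.270 and 0.202 CPM in the CHT-HSPC libraries. The related gene mpeg1.2 stood at 82.5 and 24.6 CPM in the CHT-EC libraries, against 5.19 and 5.81 CPM in CHT-HSPC. Levels of cxcr3.2 were 53.5 and 57.8 CPM in the CHT-EC libraries, against 3.40 and 32.4 CPM in CHT-HSPC. That gene did not pass (edgeR adjusted p = 0.298). Abundant genes of the list were csf1ra (4.34), slc7a7 (3.56), csf1rb (0.43, not past the threshold) and ccl34a.4, with 3966 and 1443 counts in the CHT-EC libraries, against 0 and 1 in CHT-HSPC.

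Of 15 tested erythroid markers, 8 were higher in CHT-EC and 1, the erythropoietin receptor gene epor (-1.78), in CHT-HSPC, with sums of 20755 and 37696 CPM in the CHT-EC libraries, against 6137 and 4213 CPM in CHT-HSPC. The abundant genes were the embryonic globins hbae3 (4.81), hbbe1.1 (4.92) and hbbe1.2 (5.85), which have near-identical copies so that single values are uncertain, and slc4a1a (1.37, not past the threshold). Without CHT-EC replicate 1 epor did not pass (edgeR adjusted p = 0.149), and the count higher in CHT-HSPC was 0 without CHT-HSPC replicate 1, or 3 if CHT-EC replicate 2 was left out. Of 10 tested thrombocyte markers, 4 were higher in CHT-HSPC, which were itga2b, itgb3b (-3.49), mpl (-3.24) and gp1bb (-2.11), with sums of 1425 and 552 CPM in the CHT-EC libraries, against 2593 and 1982 CPM in CHT-HSPC. The abundant thbs1b (-1.38), apln (-1.77) and fn1b (2.01, and -0.47 without CHT-EC replicate 1) did not pass, and without CHT-EC replicate 1 mpl alone passed, whereas the count was 7 with DESeq2. The gene itga2b, whose promoter drives the GFP, had 4.69 and 9.31 CPM in the CHT-EC libraries, against 56.2 and 87.0 CPM in the CHT-HSPC libraries (log2 fold change -3.35, SE 0.46, edgeR adjusted p = 0.0158). Of 13 stem and progenitor markers, 5 were higher in CHT-HSPC, which were itga2b, myb, runx1, zfpm1 (-2.40) and meis1b (-1.43), with sums of 834 and 1210 CPM in the CHT-EC libraries, against 2556 and 2763 CPM in CHT-HSPC. The abundant tal1 (-1.61) did not pass, and without CHT-EC replicate 1 the 5 had edgeR adjusted p between 0.0693 and 0.179. The median log2 fold change was 2.16 over the endothelial list, 3.84 over the erythroid, -1.78 over the thrombocyte and -1.43 over the stem and progenitor list. The background share of edgeR calls, over all tested genes, was 3.78% toward CHT-EC and 0.752% toward CHT-HSPC for these lists too. Lists could share genes, as rac2, cxcr4b, runx1, myb and itga2b did.

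Markers of mast cells and eosinophils were also listed, without cpa5, which is described above. Of the 7 tested, 0 were called in either direction in edgeR, with 1 at an unadjusted p under 0.05 toward CHT-EC and 2 toward CHT-HSPC. Their median log2 fold change was 0.37. DESeq2 called 1 in each direction and limma-voom 1 toward CHT-EC. Their summed level was 72.7 and 93.1 CPM in the CHT-EC libraries, against 115 and 128 CPM in CHT-HSPC. The abundant genes were csf2rb (2.80), a cytokine receptor chain, gata2a (1.26), gata1a (-1.21) and kita (-1.68). The peroxidase gene epx, whose counterpart marks eosinophils in mammals, had 6 and 0 counts in the CHT-EC libraries, against 10 and 3 in CHT-HSPC. In a newer name table the identifier of mpx is the one named EPX, so the low counts of epx show no absence of that counterpart. The gene rnasel2 had no count in any library.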

How the data were processed

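The authors deposited 1 table of whole-number read counts, with genes as rows and libraries as columns. The values were taken as not normalized, since the column totals differ. A normalization ahead of DEGseq, named in the labels' protocols, is not visible in these columns. Per the labels' protocols, libraries were made with a NEBNext Ultra mRNA kit and read as 150 bp paired ends. Per the submitters' processing notes, TopHat2 and HTSeq 0.6.1 were used with build GRCz10. Annotation release, strand setting, handling of multiply mapped reads and whether mates were counted singly are not given in the sources used here, so reads of overlapping or near-identical genes may be split or dropped. Symbols are those of the table. Of the 7 Ensembl identifiers, 7 were found in a newer name table, 4 with the same symbol and 3 under the names EPX (mpx), CPA1 (cpa5) and LECT2 (lect2l).

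The comparison was fitted with edgeR 4.0.16 in R 4.3.3 over 19016 genes left by filterByExpr (minimum count 10, minimum total 15), with TMM factors (0.968 to 1.07), no block, and Benjamini-Hochberg adjustment at 0.05. Standard errors were derived from F as the size of the log2 fold change over the root of F. The common biological coefficient of variation was 0.540. Alternatives used DESeq2 1.42.0, limma-voom (limma 3.58.1), other scalings and filters, and leaving out each library. A count of 3 equals 0.0867 to 0.112 CPM, and the reads carried no molecular identifiers.

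The members and lists were chosen with earlier results of these data known. From each list the up to 4 tested genes with the highest mean CPM are named, and any gene needed to account for a count of 5 or fewer. Other genes were named outside this rule, with their values known. Among them were kdrl, for its reporter, mpeg1.1, mpeg1.2, cxcr3.2 and several of the other neutrophil genes. The library ratios, relatives, flanking genes and replicate comparisons were set up after seeing values. The 8 nearest patterns were taken among genes that had a symbol and no clone name. Protein and promoter sequences were not used here.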

Additional observations from a re-analysis of the deposited data

How the results depend on the processing

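The number of granule protein genes higher in CHT-EC was 7 under each of 12 of 13 alternatives and 6 without CHT-EC replicate 1, where srgn was lost, and no member changed direction under any of the 13. Counts over all genes moved more. Those higher in CHT-EC numbered 471 with library totals only, 2119 with no filter on low counts and 2075 under DESeq2, against 718, and 111 to 864 with 1 library left out (111 without CHT-EC replicate 1). Those higher in CHT-HSPC numbered 812 without the filter, 746 with DESeq2 and 233 with limma-voom, against 143, and 10 to 139 with 1 library left out (10 without CHT-EC replicate 1 and 61 without CHT-EC replicate 2). The other neutrophil genes higher in CHT-EC numbered 20 without the filter and 19 with DESeq2, against 11, and 4 to 16 with 1 library left out. For granule formation and release genes the count of 1 became 3 without the filter, 3 with at least 10 CPM in 2 libraries, 4 with DESeq2, 3 with limma-voom, 2 with the replicate number as a block, and 0 to 3 with 1 library left out. With no filter on low counts, 13 macrophage markers were higher in CHT-EC, against 10, and 7 thrombocyte markers were higher in CHT-HSPC, against 4. The cause of these shifts was not tested. Across genes, the deviations of same-numbered libraries from their group means had a correlation of -0.00936. With 2 libraries per group, this value cannot decide whether the numbers pair the libraries. With the replicate block there were 813 genes higher in CHT-EC, all 7 members included, and 127 higher in CHT-HSPC. Of the other lists, the block gave 4 endothelial markers higher in CHT-EC, against 2, and 5 granulocyte transcription factors on the same side, against 3. On the CHT-HSPC side it gave 1 such factor, against 2, with runx1 lost. Some other named genes, none of them called in the main fit, changed the sign of their log2 fold change with 1 library left out. These were fn1b (range -0.47 to 2.89), fli1b (-0.40 to 0.87), csf1rb (-0.15 to 1.45), unc13d (-0.24 to 0.84) and fli1a (-0.59 to 0.01). With no filter on low counts fn1b was called as higher in CHT-EC. The share of counts on the members was 1.57% in CHT-EC and 0.0719% in CHT-HSPC with hemoglobin genes left out of the totals, against 1.53% and 0.0718%. Each member had 1 row, so summing rows gave no other value. Leaving out a library leaves a lone library in a group, which is assumed to vary like the other group. No flag for a library far from its group can be given with 2 libraries per group.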

Other observations

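The order of the replicates differed between gene lists and between the groups. In CHT-EC, replicate 2 was above replicate 1 for 4 of 22 other neutrophil genes, 15 of 15 erythroid markers, 4 of 23 endothelial markers, 4 of 18 macrophage markers and 4 of 9 pan-leukocyte genes, against 48.5% of all tested genes. In CHT-HSPC, replicate 2 was above replicate 1 for 16 of 22 other neutrophil genes, 1 of 15 erythroid markers, 8 of 23 endothelial markers, 10 of 18 macrophage markers and 9 of 9 pan-leukocyte genes, against 51.1% of all tested genes. The median log2 difference, replicate 2 minus replicate 1 on log2(CPM + 1), was -0.39 in CHT-EC and 0.61 in CHT-HSPC for other neutrophil genes, and -0.35 in CHT-EC and 0.47 in CHT-HSPC for the granule protein genes. The erythroid median ran the opposite way, at 1.02 in CHT-EC and -0.61 in CHT-HSPC. These counts compare single libraries and carry no test.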
